A study of Solanum lycopersicum with 6 samples.

Results

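TAPG1, TAPG2 and TAPG4 are tomato (Solanum lycopersicum) genes for polygalacturonases of the abscission zone. Their probes were chosen by name, as non-control probes whose RefSeq accession belongs to a gene with a symbol starting with TAPG, and with their values on these arrays already known. The array held 3 such probes among 43603 distinct non-control probes, 1 each for TAPG1 (gene 544004), TAPG2 (gene 544188) and TAPG4 (gene 544027), and each probe was printed as 1 spot. RefSeq lists 4 genes with such a symbol, and no probe carried the accession of TAPG5. Because the genes were picked with their difference between the treatments in view, that difference is described below and is not offered as a test.

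The RNA came from leaf discs, 1 cm across, of 4-week-old plants of the dwarf cultivar Micro-Tom, and all 6 samples shared this cultivar and tissue. For 12 h at 25 °C and in continuous light, 3 samples floated on 300 µM loliolide, a breakdown product of carotenoids, and 3 floated on 0.1% methanol as the control. The labels do not say whether the loliolide solution held methanol too, so a difference between the solutions' solvents cannot be told apart from loliolide. Every sample had a 1-colour Agilent array of its own, and the series title gives the purpose, to find tomato genes that respond to loliolide. Harvests were triplicate, per the labels, but which plants they came from is not stated there, so a p-value here measures only the spread between these samples. All 3 loliolide arrays lay on one slide and all 3 methanol arrays on another, so the effects of slide and treatment cannot be told apart.

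Polygalacturonases cut the backbone of pectin, the polysaccharide that holds neighbouring plant cells together in the middle lamella. When a leaf, flower or fruit is shed, a thin layer of cells at its base, the abscission zone, secretes such enzymes together with cellulases and expansins, and the cells part. In tomato, transcripts of TAPG1, TAPG2 and TAPG4 are known from leaf and flower abscission zones, where ethylene promotes and auxin delays their accumulation. Whether the discs of this study held any abscission zone tissue is not stated in the labels.

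By gene order in the RefSeq annotation of assembly SLM_r2.1, TAPG1 and TAPG2 are immediate neighbours on one chromosome. TAPG4 lies on another chromosome next to TAPG5, which in turn is next to TPG6. None of the other genes directly beside a TAPG gene had a probe that could be named by accession. Related genes of this kind can share sequence, and the probe sequences were not used here, so whether each probe reads its own gene alone was not tested.

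The levels below are log2 signals minus the 75th percentile of the same array, so that a negative value lies under that percentile. This percentile was 818 to 1083 signal units on the loliolide arrays and 1107 to 1117 on the methanol arrays, with the lowest value on loliolide replicate 3. Of the spots, 86.9% to 87.6% were well above background on the loliolide arrays and 84.5% to 85.3% on the methanol arrays. The 2 leaf photosynthesis markers found on the array, CAB4 and CAB6A of the light-harvesting complex, were bright on all 6 arrays, with a summed signal of 15750 to 50970 with loliolide and 22260 to 43510 with methanol. Of 5 fruit ripening markers 1 was well above background on all 6 arrays (E8) and 1 on none (2A11). Their summed signal was 51.2 to 77.7 with loliolide and 54 to 59.5 with methanol. No pollen or anther marker of the list had a named probe, while both root markers, RSI-1 and TIP, were well above background on all 6 arrays, with a summed signal of 5465 to 8568 with loliolide and 5455 to 7897 with methanol.

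TAPG1 was measured well above background on all 6 arrays. Its processed signal was 49.6, 39.7 and 134 in loliolide replicates 1, 2 and 3, against 33.4, 18.9 and 24.0 in methanol replicates 1, 2 and 3. Every loliolide array lay above every methanol array, but the gap was narrow, because loliolide replicate 2 exceeded methanol replicate 1 by 0.28 on the log2 scale. On the scaled log2 levels TAPG1 averaged -3.93 ± 1.15 with loliolide and -5.49 ± 0.42 with methanol (SD, n = 3 each). The difference was 1.56 (SE 0.55), or 2.95-fold.

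TAPG2, the neighbour of TAPG1, had the same order of groups. Its processed signal was 30.1, 31.8 and 97.3 in loliolide replicates 1, 2 and 3, against 19.9, 12.2 and 13.7 in methanol replicates 1, 2 and 3, all well above background. The lowest loliolide array exceeded the highest methanol array by 0.67 on the log2 scale. The scaled levels averaged -4.43 ± 1.18 with loliolide and -6.22 ± 0.38 with methanol (SD, n = 3 each), a difference of 1.79 (SE 0.56), or 3.47-fold.

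TAPG4 was detected in loliolide discs and in no methanol disc. Its processed signal was 14.1, 12.5 and 42.0 in loliolide replicates 1, 2 and 3, each well above background, against 2.54, 3.53 and 4.47 in methanol replicates 1, 2 and 3, none of them well above background. The dimmest non-control probe well above background read 7.14, 6.14 and 6.50 on these methanol arrays. Taking those readings as the methanol level, TAPG4 was 3.38-fold higher with loliolide, or 2.1-fold higher without loliolide replicate 3. These values are no strict minimum, because a probe can read higher without being well above background. RIN, for example, read 7.46 on methanol replicate 1 and was not well above background there. Its measured means were -5.65 ± 1.18 with loliolide and -8.35 ± 0.40 with methanol (SD, n = 3 each), 2.70 apart (SE 0.57), and this difference has no firm size because the methanol signals were not well above background. With the substituted readings the means lay 1.75 apart on the log2 scale, and the closest arrays of the groups 0.84 apart.

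**Figure D1:**
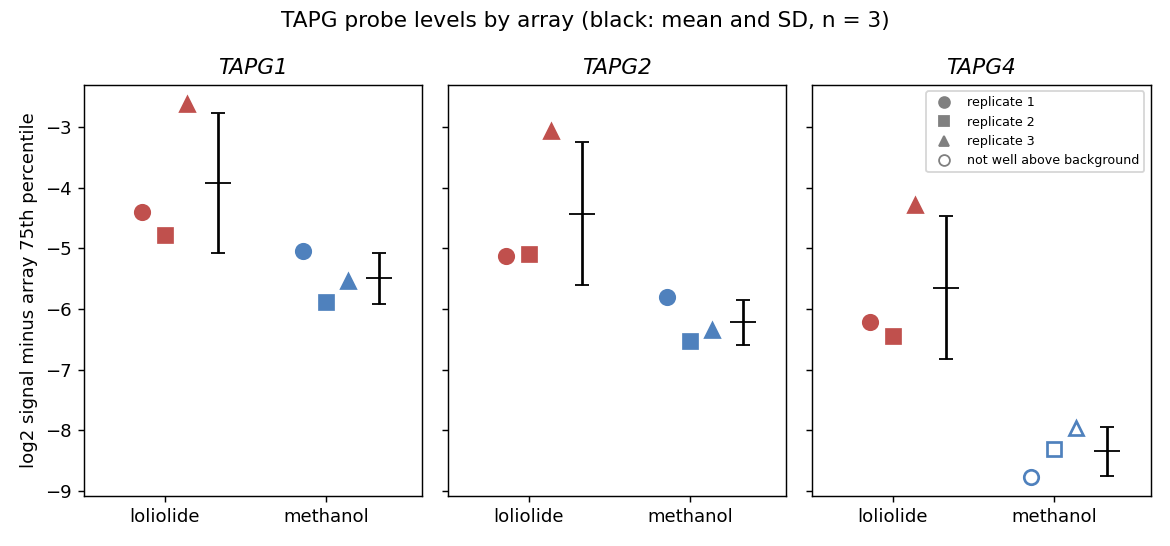
Scaled log2 signal of the TAPG1, TAPG2 and TAPG4 probes on each of 6 arrays, loliolide left and methanol right, with the mean and SD of 3 arrays in black; open symbols mark signals not well above background, and heights are not comparable between panels. In each panel the 3 loliolide arrays lie above the 3 methanol arrays, and loliolide replicate 3 is the highest.

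The scanner program estimates an error for each spot. For TAPG1 this error was at most 10.6% of the signal on the loliolide arrays and 11.4% to 13.0% on the methanol arrays. For TAPG2 it was 10.1% to 10.9% with loliolide and 13.0% to 15.4% with methanol. For TAPG4 it was 10.3% to 13.5% with loliolide and 32.7% to 59.9% with methanol, where the signal was not well above background. The 153 negative control spots averaged -1.68 to -1.34 signal units on the loliolide arrays and -2.005 to -1.86 on the methanol arrays. Their SD was at most 1.26 with loliolide and at most 1.95 with methanol. These means lay under 0, while the processed signal of 2A11, on no array well above background, was 1.35 to 1.99. Control and probe values may thus be different measures of signal, and only a rough comparison is possible. On that comparison the TAPG4 signals with methanol lay near the negative controls, and the TAPG1 and TAPG2 signals lay clear of them on every array.

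All 3 TAPG probes had loliolide arrays that lay wholly above the methanol arrays, a pattern found for 19.9% of the 37423 tested probes. All 3 were at least 2-fold higher in the measured means, as were 1.35% of the tested probes. In the limma fit over all tested probes 0 of 3 passed an adjusted p of 0.05, as 0.783% of the probes did (0.77% higher and 0.0134% lower with loliolide), while 3 of 3 had an unadjusted p under 0.05, as 20.1% did. These shares are given as a setting only, since the genes were chosen on the same arrays. TAPG4 also entered the tested set only through its loliolide arrays, as its methanol signals were not well above background. By the size of the difference TAPG2 ranked 62 and TAPG1 ranked 115 among the tested probes. TAPG4 is given no rank because its difference has no firm size. No TAPG probe passed under the other fits run, except TAPG4 with array weights. In that fit 3523 of the 37423 tested probes passed, against 293 as reported. The pass is no support, as TAPG4 was chosen with its values known.

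What the 3 genes shared most visibly was the spread within the loliolide group. Loliolide replicate 3 stood 3.45-fold above the higher of the other loliolide arrays for TAPG1, 4.06-fold for TAPG2 and 3.82-fold for TAPG4. On the log2 scale these gaps were 1.79, 2.02 and 1.93, against a median gap of -0.04 over all tested probes. Only 22 tested probes had a wider gap than TAPG1, 16 a wider gap than TAPG2 and 18 a wider gap than TAPG4. The SD among loliolide arrays was 1.15 to 1.18 for the 3 genes, against a median SD of 0.16 over all tested probes. Among methanol arrays it was 0.38 to 0.42 for the 3 genes, against a median of 0.14.

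Loliolide replicate 3 did not stand above its group for most probes. It was at least 2-fold above both other loliolide arrays for 94 tested probes, loliolide replicate 1 for 42 and loliolide replicate 2 for 48. The same count was 134, 31 and 149 for methanol replicates 1, 2 and 3. Loliolide replicate 3 was at least 2-fold below both other loliolide arrays for 243 probes, the most of any array. The leaf markers were also low there, by less than this margin after scaling. CAB6A read 27390, 19140 and 9087 in loliolide replicates 1, 2 and 3, against 15930, 14490 and 26770 in methanol replicates 1, 2 and 3. CAB4 read 23580, 12510 and 6663 in the loliolide replicates, against 12070, 7770 and 16740 in the methanol replicates. Loliolide replicate 3 was thus the lowest array of its group for both leaf markers and the highest for all 3 TAPG genes, and whether the 2 are related was not tested.

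**Figure D2:**
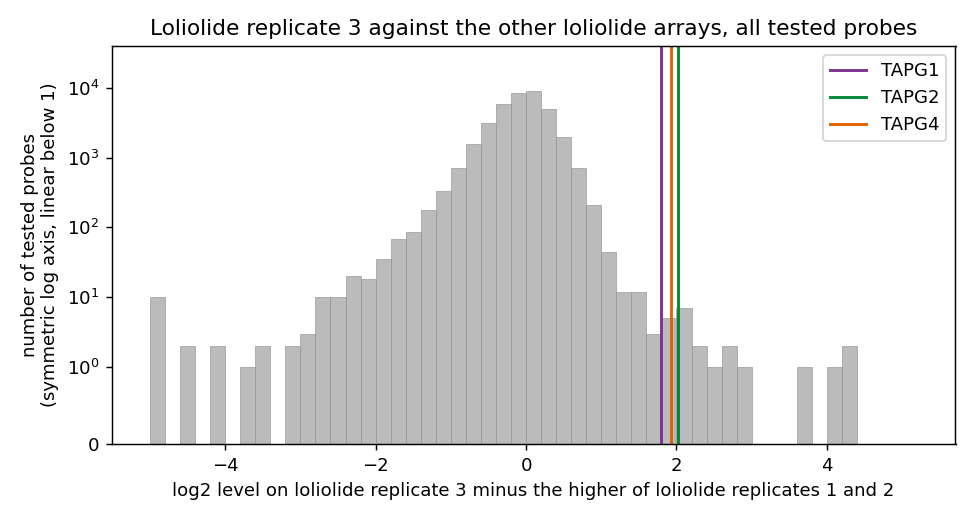
Histogram over all 37423 tested probes of the log2 level on loliolide replicate 3 minus the higher level of loliolide replicates 1 and 2 (x axis), with the number of probes on a log axis and the end bins holding all values beyond them. The lines for TAPG1, TAPG2 and TAPG4, at 1.79, 2.02 and 1.93, lie in the sparse right tail.

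Without loliolide replicate 3 the differences were smaller and less variable. Both follow from leaving out the loliolide array that stood highest and apart for each gene. TAPG1 was then 0.90 higher with loliolide (SE 0.27), TAPG2 1.12 higher (SE 0.22) and TAPG4 2.02 higher in measured means (SE 0.25), against 1.56, 1.79 and 2.70 with all arrays. The remaining loliolide arrays lay above all methanol arrays for each gene, as the order of the full groups requires. Array weights, which let limma count a more variable array less, gave 0.71 for TAPG1, 1.03 for TAPG2 and 2.35 for TAPG4. Median signals corrected by normexp with an offset of 50 and then quantile normalised gave 0.59, 0.52 and 0.40. With the same correction and offset but the 75th percentile scaling in place of quantile normalisation, the values were 0.72, 0.66 and 0.56. With that scaling and no offset they were 1.30, 1.31 and 1.58, and the last pair of settings, chosen after seeing the data, differ in the offset alone. The TAPG4 values of all these settings rest on methanol signals not well above background.

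**Figure D3:**
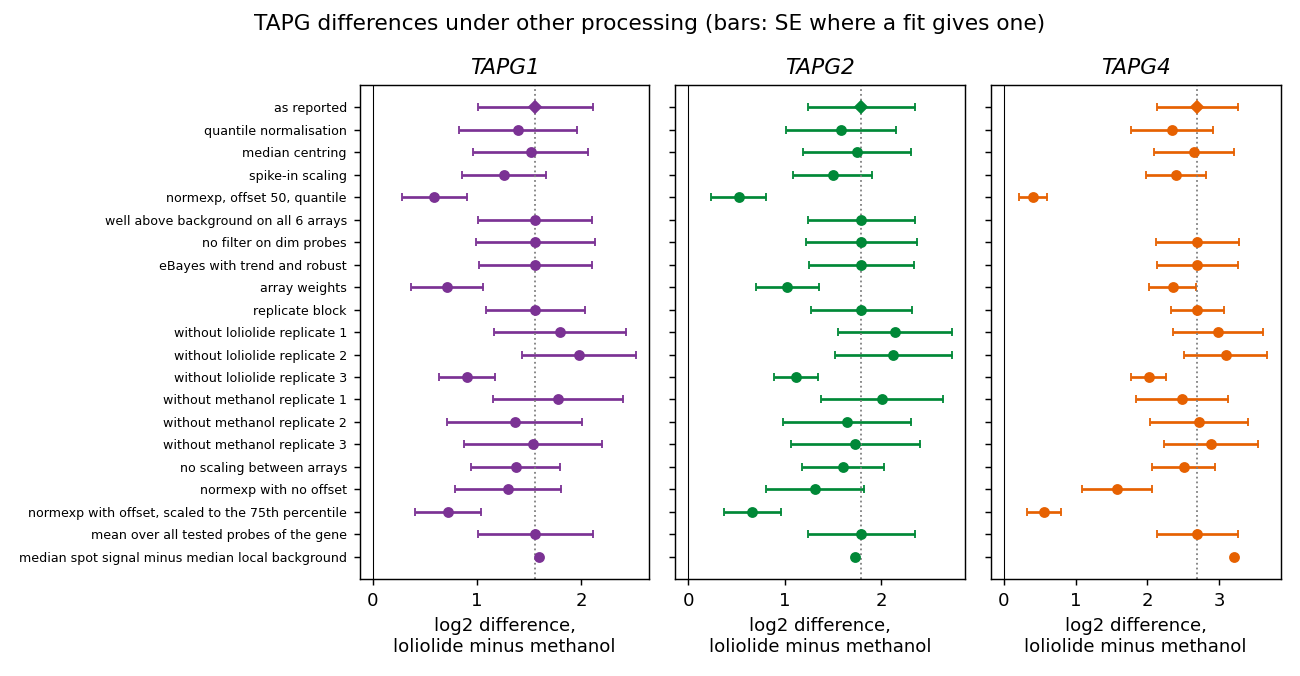
Log2 difference, loliolide minus methanol, of TAPG1, TAPG2 and TAPG4 as reported (diamond, dotted line) and under each other processing (points), with bars of 1 SE where a fit gives one. All points lie above 0, and those of normexp with an offset of 50 and quantile normalisation lie lowest, at 0.59, 0.52 and 0.40; TAPG4 differences rest on methanol signals not well above background.

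TAPG1 and TAPG2 followed each other closely across arrays. After each probe's mean over the 6 arrays was subtracted, their levels differed by a root mean square of 0.17 on the log2 scale. The same distance was 0.72 between TAPG1 and TAPG4 and 0.63 between TAPG2 and TAPG4. Over the 1080 other named genes well above background on all 6 arrays, the median distance was 1.04 from TAPG1 and 1.13 from TAPG2, and over 1081 such genes it was 1.51 from TAPG4. TAPG2 was the nearest of these genes to TAPG1, and TAPG1 the nearest to TAPG2. The 2 nearest to TAPG4 were TAPG2 and TAPG1, but the TAPG4 distances rest partly on its 3 methanol signals that were not well above background. All 3 TAPG genes were chosen with these levels known, so their nearness is a description only. The distance is not scaled to a probe's own spread, so genes that changed little also lie far from the TAPG genes.

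The next nearest genes shared the pattern to different degrees. WRKY72B, which encodes a WRKY-type transcription factor, lay 0.56 from TAPG1 and 0.65 from TAPG2. Its processed signal was 14.8, 15.3 and 24.6 in the loliolide replicates, against 10.8, 10.5 and 13.8 in the methanol replicates, so the groups did not overlap. Its loliolide replicate 3 lay 1.09 above the higher of the other loliolide arrays on the scaled log2 level, a smaller gap than those of the TAPG genes. These WRKY72B values are of its brightest probe. The other WRKY72B probe was not tested, as in neither group was it well above background on all arrays. LOC101263284 lay 0.58 from TAPG1 and 0.62 from TAPG2. WRKY72B and LOC101263284 were thus both nearer to TAPG1 than TAPG4 was, at 0.72. From TAPG2, TAPG4 lay 0.63, farther than LOC101263284 and nearer than WRKY72B. LOC101263284 read 31.4, 41.9 and 164 in the loliolide replicates, against 42.7, 45.0 and 37.5 in the methanol replicates. It was high on loliolide replicate 3 alone. The third nearest to TAPG4 was lin5, a cell-wall invertase gene, at a distance of 0.85. It read 262, 245 and 194 in the loliolide replicates, against 61.8, 97.1 and 77.6 in the methanol replicates, with no excess on loliolide replicate 3.

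**Figure D4:**
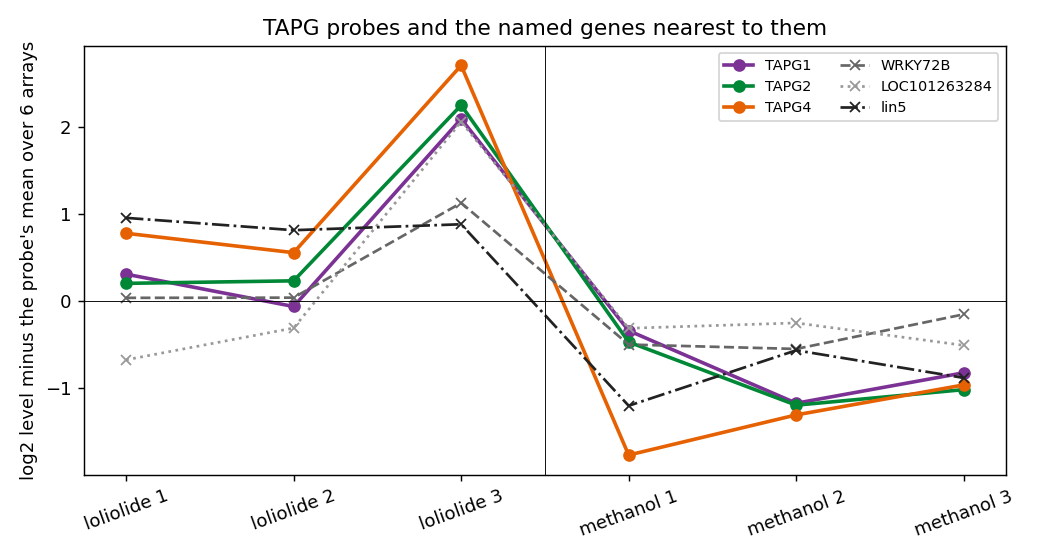
Log2 level minus the probe's own mean over the 6 arrays (y axis) on the 3 loliolide arrays, left, and the 3 methanol arrays, right, for the TAPG probes (solid) and the 3 nearest other named genes (broken), with lines that only join the points of a probe. TAPG1 and TAPG2 nearly coincide, and LOC101263284 shares their height on loliolide replicate 3 but not their order of groups on the other arrays.

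Other genes of pectin breakdown differed less in measured means than the TAPG genes. The TAPG genes were chosen with their differences known, so this contrast is no result about the list. Of 7 such genes on the array all were tested and 0 passed (limma adjusted p over all tested probes), against 0.783% of all tested probes. An unadjusted p under 0.05 was found for 2 of the 7, against 20.1% of all tested probes. The median difference of the 7 genes was 0.23, against 0.06 over all tested probes. Fruit polygalacturonase PG2, the enzyme of ripening fruit, was 1.11 higher with loliolide on its brightest probe (SE 0.24, limma adjusted p = 0.0945). That probe read 8.68, 13.4 and 12.1 in the loliolide replicates, against 6.17, 7.04 and 4.83 in the methanol replicates, where it was well above background on 1 array. It thus entered the tested set only through its loliolide arrays, and its difference has no firm size. PG2 was 1 of the 2 genes with an unadjusted p under 0.05, and that p carries the same limit. The 5 other PG2 probes were not well above background on any array. The pectin methylesterase gene PME2.1, whose product prepares pectin for polygalacturonases, read 758, 757 and 616 in the loliolide replicates, against 523, 586 and 481 in the methanol replicates. It was 0.61 higher with loliolide (SE 0.10, limma adjusted p = 0.0617), and its other tested probe was 0.35 higher (SE 0.25).

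XOPG1 and PGcat, both among these 7 genes and named after their values were seen, differed little between the groups. XOPG1 read 1335, 1546 and 1081 in the loliolide replicates, against 1502, 1516 and 1549 in the methanol replicates, and its scaled difference was -0.03 (SE 0.09). PGcat was 0.21 higher (SE 0.09, limma adjusted p = 0.271), with all loliolide arrays above all methanol arrays. Neither was raised on loliolide replicate 3, where the gap over the higher of the other loliolide arrays was -0.11 for XOPG1 and -0.06 for PGcat.

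Cellulases act with polygalacturonases when cells part. Of 6 tested cellulase genes 0 passed in limma, against 0.783% of all tested probes. An unadjusted p under 0.05 was found for 0 of the 6, against 20.1% of all tested probes. The median difference of these genes was 0.02. Cel1, an endoglucanase gene known from tomato flower abscission, read 73.5, 143 and 105 in the loliolide replicates, against 253, 146 and 166 in the methanol replicates. Its difference was -0.64 (SE 0.31, limma adjusted p = 0.299), opposite in sign to the TAPG genes, and the groups overlapped. The cellulase gene cel5, named after its values were seen, read 261, 213 and 63.3 in the loliolide replicates, against 262, 110 and 430 in the methanol replicates. It was thus lowest on loliolide replicate 3, the array where the TAPG genes were highest. Cel3 was 0.12 higher on its brightest probe (SE 0.10, limma adjusted p = 0.522), and its other probes lay between -0.25 and 0.22.

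Wall-loosening genes lay nearer to the bulk of the array than the TAPG genes, a contrast set by choosing the TAPG genes with their differences known. Of 10 tested expansin genes 0 passed in limma, against 0.783% of all tested probes, with a median difference of 0.17. An unadjusted p under 0.05 was found for 4 of them, against 20.1% of all tested probes. EXP1 was 0.52 higher (SE 0.15, limma adjusted p = 0.146) and EXPA8 0.50 higher (SE 0.16, limma adjusted p = 0.172). Of 10 tested xyloglucan enzyme genes 0 passed and 3 had an unadjusted p under 0.05, with a median of 0.22. Among these, tXET-B2 was 0.64 higher (SE 0.17, limma adjusted p = 0.129) and XTH3 0.36 higher (SE 0.10, limma adjusted p = 0.139). Of 7 tested beta-galactosidase genes 0 passed and 1, TBG4, had an unadjusted p under 0.05, with a median of 0.14. TBG4 was 0.46 higher (SE 0.13, limma adjusted p = 0.14) and TBG3 0.49 higher (SE 0.30, limma adjusted p = 0.399).

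Of the abscission zone regulators sought by symbol, only 3 genes had a named probe on the array. The levels of the others are therefore not known here. The symbols LS and PTS (synonym KD1), developmental regulators of shoots and leaves, were not well above background on any array. FYFL, a MADS-box gene that delays abscission when overexpressed in tomato, was the 1 tested gene of this list, at a difference of 0.01 (SE 0.17, limma adjusted p = 0.972). It read 162, 180 and 111 in the loliolide replicates, against 155, 142 and 211 in the methanol replicates, and the groups overlapped.

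Ethylene and auxin are the hormones that govern TAPG transcripts in abscission zones. Of 8 tested ethylene synthesis genes 1 rose, ACS2, which makes the ethylene precursor, by 0.79 (SE 0.10, limma adjusted p = 0.0319). Over all tested probes 0.783% passed. ACS2 read 187, 187 and 148 in the loliolide replicates, against 115, 125 and 104 in the methanol replicates, with no excess on loliolide replicate 3 after scaling, where its gap was 0.02. The remaining ACS2 probe was 0.95 higher without passing (limma adjusted p = 0.11). The call of the brighter probe was lost without each array in turn, with a limma adjusted p of 0.0638 to 0.137, and with the replicate block (0.225). Quantile normalisation, median centring, spike-in scaling, both settings of normexp with the offset and no scaling also ended it, and the limma adjusted p over all other fits run was 0.0041 to 0.235. The other 7 genes did not pass, and the list's median was 0.13. Of 21 tested genes of ethylene perception and response 0 passed in limma, 5 had an unadjusted p under 0.05, against 20.1% of all tested probes, and the median was 0.17. The receptor gene LOC544279 (synonym ETR3) was 0.38 higher on its brightest probe (SE 0.09, limma adjusted p = 0.109), while its other tested probes were at 0.03, -0.04 and -0.06. EIL2, of the EIN3-like transcription factors, was 0.27 higher on its brightest probe (SE 0.08, limma adjusted p = 0.156). The remaining EIL2 probe showed almost no difference.

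Of 31 tested auxin genes 0 passed in limma, 4 had an unadjusted p under 0.05, against 20.1% of all tested probes, and the median was 0.03. The auxin-response repressor gene IAA12 was at -0.37 (SE 0.13, limma adjusted p = 0.195) on its 1 probe. The auxin efflux carrier gene PIN3 was at 0.24 on its brightest probe (SE 0.09, limma adjusted p = 0.201) and at -0.16 on its other (SE 0.17). Over all 9 lists, 1 of 101 tested genes passed, against 0.783% of all tested probes, and 21 of 101 had an unadjusted p under 0.05, a share close to the 20.1% of all tested probes. Scaling to spike-in controls put the median of all tested probes at -0.24, against 0.06 as reported, and shifted every list by the same amount. The pectin list, for example, then lay at -0.07, which is 0.17 above the median of all tested probes, as it also was with median centring. The TAPG differences under that scaling were 1.26, 1.49 and 2.40 for TAPG1, TAPG2 and TAPG4.

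**Figure D5:**
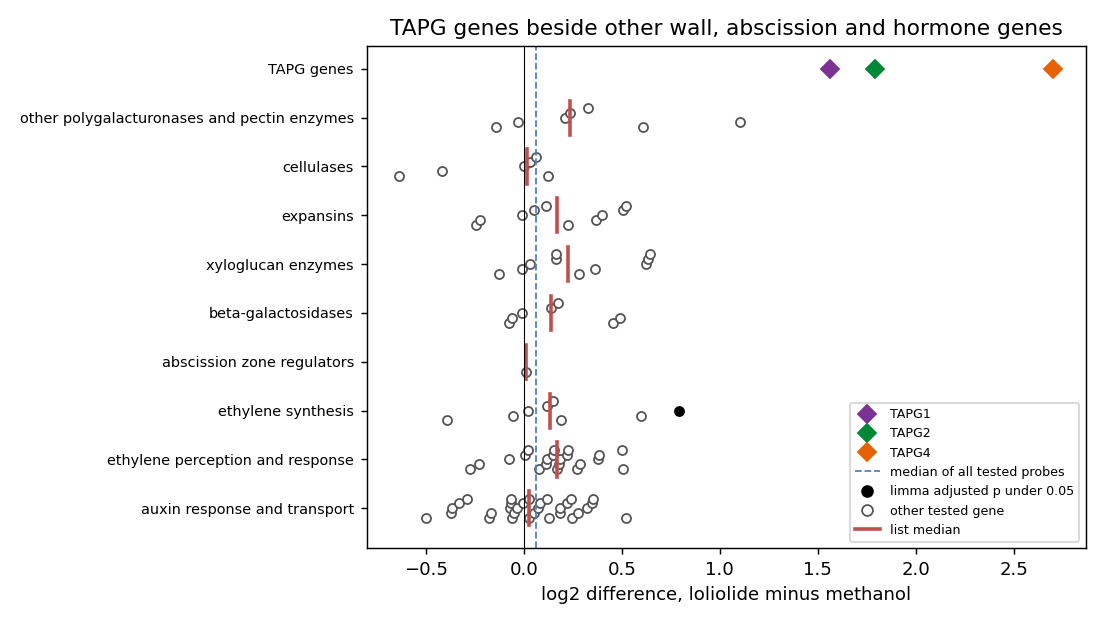
Log2 difference, loliolide minus methanol, of the 3 TAPG genes (diamonds) and of each tested gene in 9 lists (circles, filled where the limma adjusted p was under 0.05), with list medians as red bars and the median of all tested probes, 0.06, as a dashed line. The TAPG genes, chosen with these values known, lie at 1.56, 1.79 and 2.70, right of every listed gene, of which PG2 comes closest at 1.11. The 2.70 of TAPG4 has no firm size, as its methanol signals were not well above background. Its difference was 1.75 with the dimmest reading well above background taken as each methanol level. PG2 was well above background on 1 methanol array only, so its 1.11 has no firm size either.

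None of the 3 TAPG probes was among the 27 probes of the authors' deposited table of loliolide-responsive genes. The lowest log2 ratio of any numbered pair in the authors' deposited table was 1.04, and its lowest mean ratio was 1.13. Between arrays of the same number, TAPG4 differed by 2.55, 1.87 and 3.68 in measured levels, each larger than that lowest pair ratio, with methanol signals not well above background. TAPG1 differed by 0.65, 1.11 and 2.92 and TAPG2 by 0.67, 1.43 and 3.27, and their first pairs fell below it. The authors' ratios were compared with these levels by correlation only, so a constant offset between the scales is possible.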

How the data were processed

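The deposited files are scanner output of 6 arrays. Their processed intensity had its background subtracted and a spatial trend removed in Agilent's Feature Extraction program, version 11.5.1.1 per the file headers and 9.1 per the submitters' processing notes. These intensity values were not normalised between arrays. A further table deposited by the authors gives log2 ratios for 27 probes and had a correlation of 1 with the differences between same-numbered arrays. From 500 ng of RNA, Cy3-labelled targets were made, per the labels' protocols.

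Levels are log2 processed signals minus the 75th percentile of all non-control spots on the array, without spots flagged as outliers (0 to 5 per array), and no spot was saturated. Of 43603 probes, 37423 were well above background on all arrays of a group and were tested with limma 3.58.1 in R 4.3.3 (lmFit, eBayes, Benjamini-Hochberg over all tested probes, threshold 0.05, 3 against 3 arrays). The fit was checked on simulated data. Accessions were matched to RefSeq genes of SLM_r2.1, which named 2576 probes of 1191 genes. A listed gene was represented by its brightest probe. The TAPG genes, the lists and the naming rule were chosen with earlier results of these data known. The rule named every TAPG gene, each list's passing genes or else its 2 with the smallest p, and the 3 named genes nearest to each TAPG gene. Alternatives changed the scaling, background, dim-probe filter, variance model or array weights, added the replicate block, or left out each array in turn. The number of arrays limits the precision. Sequences were not analysed here.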

Additional observations from a re-analysis of the deposited data

How the results depend on the processing

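All TAPG differences stayed above 0 under every alternative run, over ranges of 0.59 to 1.98 for TAPG1, 0.52 to 2.14 for TAPG2 and 0.40 to 3.20 for TAPG4. They moved by more than the replicate spread with normexp at an offset of 50 and quantile normalisation (0.59, 0.52 and 0.40). With this offset and the 75th percentile scaling they were 0.72, 0.66 and 0.56, within the spread for TAPG1 only, and without the offset TAPG4 moved to 1.58. The TAPG4 values rest on methanol signals not well above background. Without each array in turn they ranged from 0.90 to 1.98, 1.12 to 2.14 and 2.02 to 3.10. TAPG4 has no value where a signal well above background was required on all 6 arrays. The count of changed probes, 293 as reported, was 107 with quantile normalisation, 191 with median centring, 65 with spike-in scaling, 54 with normexp at an offset of 50 and quantile normalisation, 190 with the stricter filter, 159 with a variance trend and robust eBayes, and 3523 with array weights. It was 73 without scaling, 152 with normexp without offset and 95 with the offset and 75th percentile scaling, all chosen after seeing the data, as was the median spot signal. It ranged from 0 to 105 without each array, with 0 without loliolide replicate 1 (limma, 5928 with an unadjusted p under 0.05). The count of changed listed genes, 1 as reported, was 0 with quantile normalisation, median centring, spike-in scaling, normexp at an offset of 50 under either scaling, no scaling and the mean over a gene's probes, 0 to 0 without each array, and 16 with array weights. The replicate block gave 0 probes (limma, 5194 with an unadjusted p under 0.05) and 0 listed genes, and left the TAPG differences at 1.56, 1.79 and 2.70. Same-numbered arrays deviated together with correlations of -0.16, -0.14 and -0.46, so the numbers were not taken as pairs. A slide block could not be fitted because each slide holds 1 group, and normexp used median signals because the files hold no mean signal. The cause was not tested for the other shifts.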

Other observations

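The widest gaps of loliolide replicate 3 over the other loliolide arrays were searched after the TAPG values had been seen. Of the 23 tested probes with gaps at least as wide as that of TAPG1, 3 were the TAPG probes, 4 belonged to other named genes and 16 were unnamed. The other named ones were 3 probes of psi14C, with gaps of 4.26, 4.16 and 2.79 on the log2 scale, and LOC101263284. The groups overlapped for psi14C, whose differences between loliolide and methanol were -0.06, -0.18 and 0.01. All loliolide arrays lay above all methanol arrays for 4 of the 23 probes, against 19.9% of all tested probes. These were the 3 TAPG probes, chosen with their values known, and the unnamed probe A_96_P143196. That probe had a gap of 2.92 and a difference of 2.24.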
